A study of Homo sapiens with 6 samples.

Results

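Matrix metalloproteinases (MMPs) and their tissue inhibitors (TIMPs) were followed in MDA-MB-231, an established line of human triple-negative breast cancer, after treatment with Azeliragon. The genes were chosen by name, with earlier results of these data known. All 10 were found among 58733 named entries of the deposited count table: MMP1, MMP2, MMP3, MMP9, MMP14, MMP15, MMP16, TIMP1, TIMP2 and TIMP3. Polyadenylated RNA was sequenced after 72 h in the vehicle DMSO (libraries a, b and c) or with Azeliragon at 2 µM, which blocks the receptor RAGE (libraries a, b and c). All 6 libraries came from the same line grown in medium with serum, so a single tumour line stands for the disease. Nothing in the labels ties a library to a culture of its own, so the p-values cover the spread among these libraries alone, and that spread may be technical.

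MMPs are zinc-dependent proteases that cut proteins of the extracellular matrix and of the cell surface. Most are made as inactive precursors and are switched on when a propeptide is removed, for some of them by plasmin or furin. TIMPs bind the active site and block it, and TIMP2 also takes part in the activation of the MMP2 precursor by MMP14 at the cell surface. In breast cancer the family is studied for its part in invasion and in the spread to lung and bone.

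Azeliragon libraries held more RNA of the collagenase MMP1 and less of the membrane-type proteases MMP14 and MMP15 and of the inhibitors TIMP1 and TIMP3. MMP1 was 5.21-fold higher, whereas MMP14, MMP15, TIMP1 and TIMP3 were 1.29-fold, 1.47-fold, 1.26-fold and 1.32-fold lower. Of the 10 genes, 8 passed the filter on low counts, and 1 rose, 4 fell and 3 did not pass an adjusted p of 0.05 (edgeR quasi-likelihood test, Benjamini-Hochberg adjustment over 16081 genes). With a library omitted 2 to 4 of the 10 were called lower, since TIMP1 lost its call in 5 of 6 such sets and MMP15 in 3. The threshold was passed by 6.27% of all genes tested, with 2.75% higher and 3.53% lower. The libraries of the 2 conditions did not overlap for 5 of the 8, where this held for 25.3% of all genes tested. The median log2 fold change was -0.24 over the 8 genes and -0.004 over all genes tested. Because the genes were chosen with earlier results of these data known, these comparisons describe them and do not test for an excess. In RNA from whole cultures, more cells expressing a gene and more RNA per cell cannot be told apart.

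**Figure D1:**
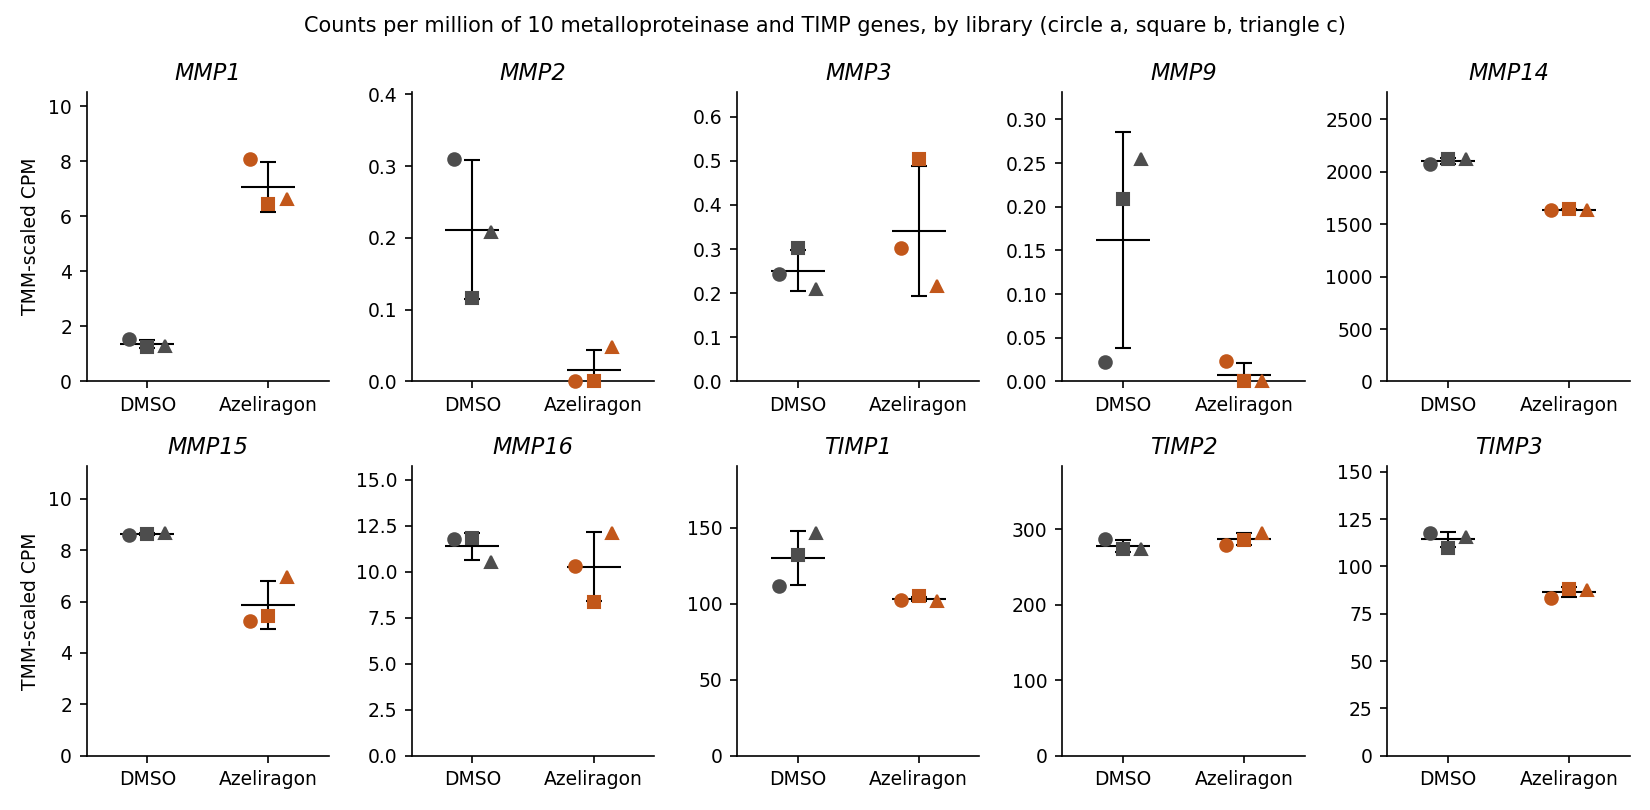
Level in CPM (counts scaled to a common library size, with TMM factors) of each of the 10 genes on its own vertical axis, starting at 0, for 3 DMSO and 3 Azeliragon libraries (circle a, square b, triangle c), with the mean and SD as bars. MMP1 lies between 1.25 and 1.53 CPM in DMSO and between 6.44 and 8.10 with Azeliragon, while MMP14, MMP15, TIMP1 and TIMP3 lie lower with Azeliragon in every library.

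The libraries were of similar depth, between 41455979 and 44313584 counts, so that a single read was worth 0.0222 to 0.0241 CPM. DMSO a lay far from DMSO b and c on the first principal component (-0.23 against 30.1 and 33.7; the Azeliragon libraries lay between -23.0 and -19.0). Without DMSO a 23.7% of genes passed, and the share of called genes that were lower was 45.4% in place of 56.2%. That share was 44.7% when trends on GC content and exon length were taken out of each library. Both settings left 1 of the 10 genes called higher and 4 called lower. The markers VIM, CD44, AXL, ZEB1, EGFR, KRT18 and CAV1, fixed for this line, were all tested in these libraries. AXL and EGFR rose (log2 fold change 0.26 and 0.58; edgeR adjusted p = 0.0297 and 0.0174), and the others did not pass. PGR had 0 reads and CDH1 1 read in all, and ESR1 had 5 reads in DMSO and 33 with Azeliragon. The 8 markers of receptor-positive breast cells summed to 1022 to 1175 CPM in DMSO and 999.7 to 1039 with Azeliragon, most of it from KRT8. In the same order, GATA3 averaged 27.6 and 23.2 CPM, EPCAM 8.97 and 8.14, and ERBB3 3.07 and 3.44. FOXA1 had 51 and 46 reads, and none of the 5 genes tested from this list passed. Among 6 fibroblast markers PDGFRA and FAP were at 0 and DCN had 3 reads. Their summed level was 9.78 to 12.0 CPM in DMSO and 6.05 to 7.36 with Azeliragon, most of it from PDGFRB. PDGFRB fell (log2 fold change -0.75; edgeR adjusted p = 0.00386), while LUM did not pass (edgeR adjusted p = 0.747). Among 6 leukocyte markers CD3E and MS4A1 were at 0 and PTPRC had 3 reads, with summed levels of 1.24 to 1.76 and 0.868 to 1.21 CPM. Most of that sum came from CD14 (1.36 and 0.903 CPM), which did not pass (edgeR adjusted p = 0.247), and CD68 had 21 and 23 reads. The 4 endothelial markers summed to 3.08 to 4.5 and 5.96 to 6.29 CPM, most of it from KDR, with 9 and 19 reads of CDH5. KDR rose (log2 fold change 0.71; edgeR adjusted p = 0.0324), while PECAM1 and VWF did not pass (edgeR adjusted p = 0.398 and 0.103). The part of these marker lists in the results was not tested.

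MMP1 encodes interstitial collagenase, which cuts the triple helix of fibrillar collagens. Its gene (ENSG00000196611.4) spans bases 102789920 to 102798160 of chromosome 11, minus strand (GRCh38, GENCODE 29), and has 10 exons. The DMSO libraries held 1.53, 1.25 and 1.28 CPM (69, 54 and 55 reads), and the Azeliragon libraries 8.10, 6.44 and 6.63 CPM (348, 281 and 275 reads). Every Azeliragon library was above every DMSO library, and Azeliragon a was the highest of all. The means were 1.35 ± 0.15 and 7.06 ± 0.91 CPM (SD, n = 3 each), with a log2 fold change of 2.38 (SE 0.17, 95% interval 2.02 to 2.75; edgeR adjusted p = 1.14e-05). Among the 16081 genes tested only 2 had a larger log2 fold change. Azeliragon libraries held 83.6% of MMP1 reads (exact 95% binomial interval 81.2% to 85.7%, counting error only), against the 49.4% that their scaled depth alone would give. In the 6 sets of 5 libraries, each made by omitting a library, the log2 fold change was 2.27 to 2.48 and the call held.

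The MMP1 exons overlap those of the pseudogene WTAPP1 on the opposite strand. The strand setting of the counting is not given in the sources used here, so reads from the overlap cannot be assigned to either gene. A stretch of MMP1 coding sequence that lies in the overlap is shown 5′ to 3′ on the MMP1 strand, because it marks where the count is uncertain. It lies at chr11:102795174-102795224 (51 bases of exon 6) and comes from the GENCODE 29 transcript.
MMP1 exon 6: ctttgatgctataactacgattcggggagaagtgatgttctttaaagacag
Only 3 reads were counted to WTAPP1 in DMSO and 3 with Azeliragon, against 178 and 904 to MMP1.

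MMP1 sits in a cluster of 9 MMP genes whose starts span 425 kb (GENCODE 29), and it was the only one of the 9 that passed the threshold with all 6 libraries. Of the cluster, 3 genes could be tested, MMP27 and MMP12 had 0 reads in all libraries, and MMP7, MMP20, MMP10 and MMP13 were below the filter. MMP3, stromelysin, which cuts many matrix proteins and can activate other MMPs, starts 45.6 kb from MMP1 (bases 102835801 to 102843803, minus strand). It had 11, 13 and 9 reads in DMSO and 13, 22 and 9 with Azeliragon. The libraries overlapped, with Azeliragon b the highest, and MMP3 did not pass (log2 fold change 0.44; edgeR adjusted p = 0.659; 95% interval of the fold change -0.62 to 1.5). Without Azeliragon b the fold change of MMP3 was 0.05 on the log2 scale. MMP8, the neutrophil collagenase, did not pass either (log2 fold change 0.07, SE 0.24; edgeR adjusted p = 0.916). MMP10, named after its values were seen because it is the MMP nearest to MMP1 (17.5 kb), had 0 reads in each DMSO library and 3, 2 and 2 reads with Azeliragon. Each of these counts is at or below the limit of 3 reads that a count of 0 allows, and a change was not tested. Azeliragon libraries held 100% of MMP10 reads (exact 95% interval 59.0% to 100%, counting error only), against 49.4% by scaled depth. Beside the cluster, YAP1, BIRC2, BIRC3, TMEM123, DCUN1D5 and DYNC2H1 did not pass, with 0 called by edgeR and 0 at an unadjusted p under 0.05. Of all 16081 genes tested 6.27% were called, and 3280 had an unadjusted p under 0.05 in edgeR. The smallest p among the 6 neighbours was that of TMEM123 (log2 fold change 0.12, SE 0.06; edgeR adjusted p = 0.332). Without DMSO a 2 of these 6 neighbours were called higher, TMEM123 among them (edgeR adjusted p = 0.0394). In that set 2137 of all 16508 genes tested were called higher.

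**Figure D2:**
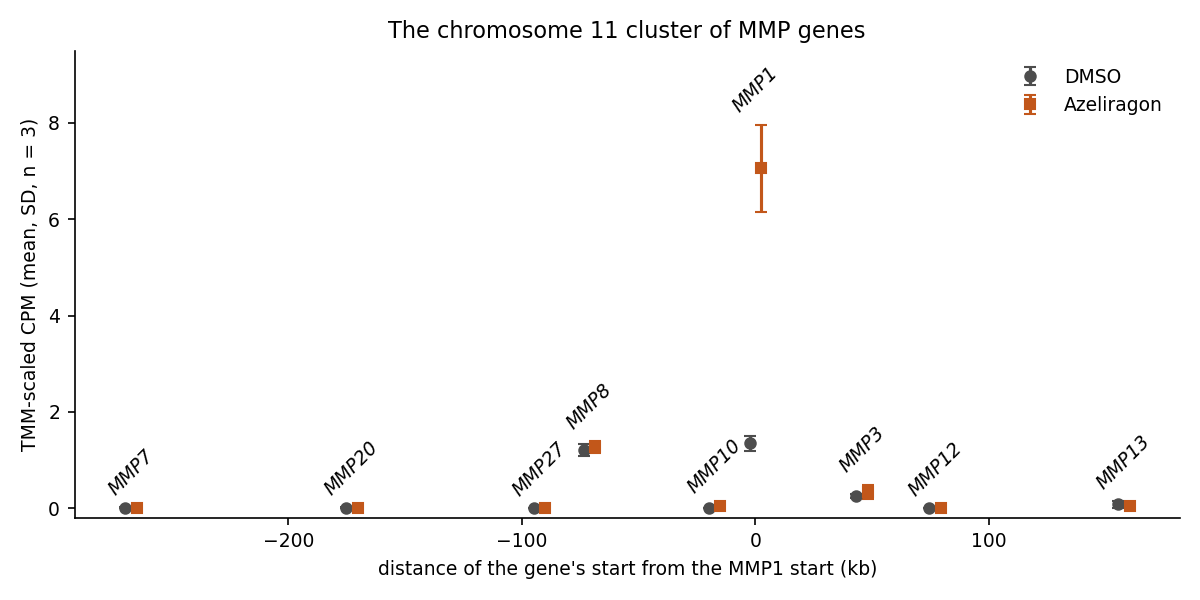
Mean CPM with SD (n = 3) of the 9 MMP genes of the chromosome 11 cluster, plotted by the distance of each start from the MMP1 start in kb, in DMSO and with Azeliragon. MMP1 stands at 7.06 CPM with Azeliragon and 1.35 in DMSO, MMP8 at 1.27 and 1.22, and all other points lie below 0.5 CPM.

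MMP14, the main membrane-anchored collagenase and activator of the MMP2 precursor, was by far the most abundant MMP. Its gene (ENSG00000157227.12) spans bases 22836557 to 22849027 of chromosome 14, plus strand. Its level was 2074, 2124 and 2122 CPM in DMSO and 1637, 1642 and 1637 CPM with Azeliragon. The 3 Azeliragon libraries were nearly equal, and all lay below the DMSO libraries. The means were 2107 ± 28 and 1639 ± 2.8 CPM (SD, n = 3 each; log2 fold change -0.36, SE 0.05, 95% interval -0.48 to -0.24; edgeR adjusted p = 0.00181). The call held in each set of 5 libraries (edgeR adjusted p up to 0.0291).

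MMP15, a related membrane-type protease encoded by bases 58025566 to 58046901 of chromosome 16 (plus strand), had 8.59, 8.62 and 8.67 CPM in DMSO and 5.23, 5.43 and 6.94 CPM with Azeliragon. The DMSO libraries were almost identical and Azeliragon c was nearest to them, without overlap. The log2 fold change was -0.56 (SE 0.13; edgeR adjusted p = 0.0244). The call of MMP15 was lost without DMSO b (edgeR adjusted p = 0.0895), Azeliragon a (0.139) or Azeliragon b (0.122). MMP16, the third membrane-type member (chromosome 8, bases 88032009 to 88328025, minus strand), had 11.8, 11.8 and 10.5 CPM in DMSO and 10.3, 8.35 and 12.1 with Azeliragon. Its groups overlapped, with Azeliragon c the highest of all 6 libraries, and it did not pass (log2 fold change -0.15; edgeR adjusted p = 0.572; 95% interval of the fold change -0.44 to 0.14).

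The gelatinases MMP2 and MMP9, which degrade denatured collagen and basement membrane collagen, were close to absent at this depth and were not tested with the other genes. MMP2 (chromosome 16, bases 55389700 to 55506691, plus strand) had 14, 5 and 9 reads in DMSO and 0, 0 and 2 with Azeliragon. All 3 Azeliragon libraries lay below all DMSO libraries, and they held 6.67% of MMP2 reads (exact 95% interval 0.818% to 22.1%). MMP9 (chromosome 20, bases 46008908 to 46016561, plus strand) had 1, 9 and 11 reads in DMSO and 1, 0 and 0 with Azeliragon. The groups overlapped for MMP9, since DMSO a had a single read, and Azeliragon libraries held 4.55% of its reads (exact 95% interval 0.115% to 22.8%). These intervals cover counting error only. With no filter on low counts neither gene passed (edgeR adjusted p = 0.0759 for MMP2 and 0.133 for MMP9). MMP9 shares 430 exon bases with SLC12A5-AS1 on the opposite strand, to which 1 read was counted in all.

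Of the 3 inhibitors TIMP1 and TIMP3 fell, and TIMP2 did not pass. TIMP1, a secreted inhibitor of most MMPs, spans bases 47582313 to 47586789 of chromosome X, within the span of SYN1, which runs on the opposite strand without shared exon bases. Its level was 112, 132 and 147 CPM in DMSO and 102, 105 and 102 CPM with Azeliragon. DMSO a was the lowest DMSO library and came nearest to the Azeliragon libraries. The log2 fold change of TIMP1 was -0.34 (SE 0.09; edgeR adjusted p = 0.0430). The call of TIMP1 was lost in 5 of 6 sets of 5 libraries: without DMSO b (edgeR adjusted p = 0.176), DMSO c (0.0997), Azeliragon a (0.190), Azeliragon b (0.145) or Azeliragon c (0.187). Without DMSO a it passed at an edgeR adjusted p of 2.17e-06.

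TIMP3, an inhibitor bound to the extracellular matrix that also blocks several ADAM proteases, spans bases 32801701 to 32863043 of chromosome 22, within the span of SYN3, again on the opposite strand and with no shared exon bases. It had 118, 110 and 115 CPM in DMSO and 83.5, 88.3 and 87.5 CPM with Azeliragon, without overlap. The log2 fold change was -0.40 (SE 0.06; edgeR adjusted p = 0.00236), and the call held in all 6 sets of 5 libraries (edgeR adjusted p up to 0.0314). TIMP2 (chromosome 17, bases 78852977 to 78925387, minus strand) had 287, 273 and 274 CPM in DMSO and 279, 285 and 295 CPM with Azeliragon. Its groups overlapped and it did not pass (log2 fold change 0.04; edgeR adjusted p = 0.737). The 95% interval of TIMP2, from -0.08 to 0.17, does not reach the fold changes of TIMP1 and TIMP3, but the difference between the inhibitors was not tested. TIMP2 shares 198 exon bases with CEP295NL on the same strand, to which 25 reads were counted in DMSO and 28 with Azeliragon.

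**Figure D3:**
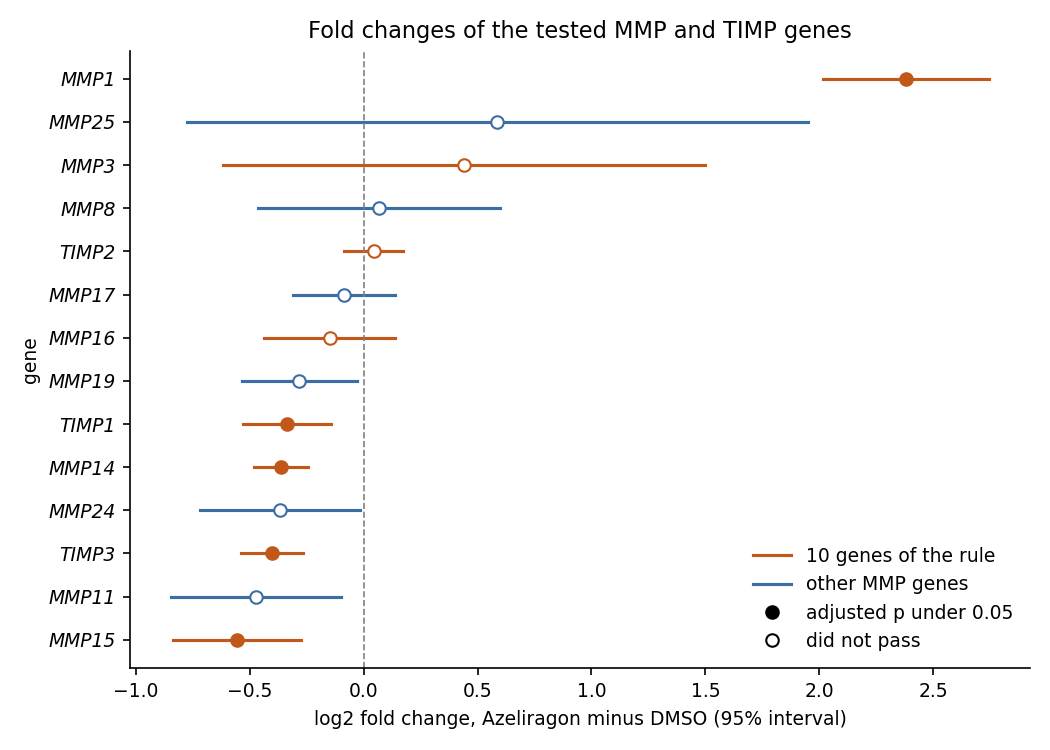
Log2 fold change (Azeliragon minus DMSO) with its 95% interval from the edgeR fit for the 14 MMP genes and TIMPs that could be tested. Filled points passed an adjusted p of 0.05. MMP1 stands alone at 2.38, while MMP15, TIMP3, MMP14 and TIMP1 lie between -0.56 and -0.34.

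**Figure D4:**
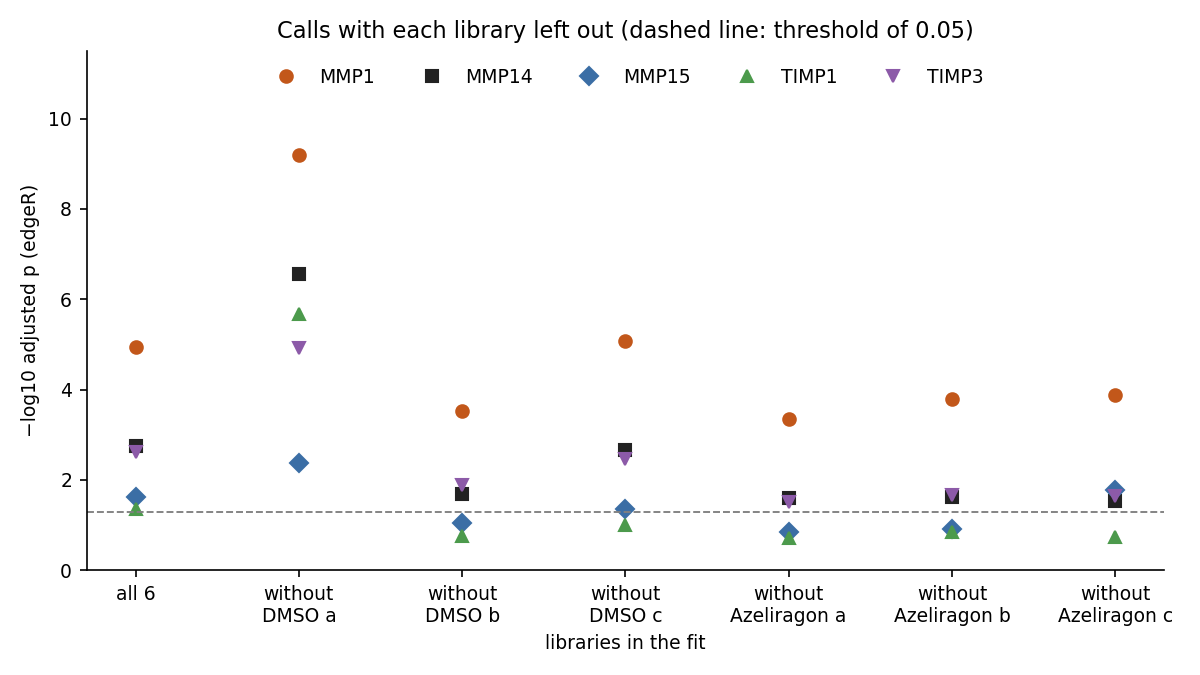
Adjusted p of the 5 called genes, as −log10, for all 6 libraries and for each set of 5. The dashed line is the threshold of 0.05. MMP1, MMP14 and TIMP3 stay above it in every set, MMP15 in 3 of 6 sets of 5 libraries and TIMP1 in 1.

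Promoters of 4 of the 10 genes, MMP14, MMP15, TIMP1 and TIMP3, were taken from the RefSeq promoter table (GRCh38.p14). MMP16 was left out of this search, and MMP1, MMP2, MMP3, MMP9 and TIMP2 were not matched. The 4 promoters shown are those of the members that fell. The windows searched were the 250 bases before the RefSeq start site, and the bases printed end before the first GENCODE 29 exon of the gene, which begins 28 bases before the end of the window in MMP14, 188 in MMP15, 123 in TIMP1 and 4 in TIMP3. Capitals mark matches, on either strand, to the AP-1 motif TGANTCA, the E-box CAGGTG known to be bound by SNAIL, the GC box GGGCGG of SP1 and the TATA box TATAAA. The regions printed are chr14:22836335-22836556 for MMP14, chr16:58025504-58025565 for MMP15, chrX:47582186-47582312 for TIMP1 and chr22:32801455-32801700 for TIMP3, all on the plus strand.
MMP14: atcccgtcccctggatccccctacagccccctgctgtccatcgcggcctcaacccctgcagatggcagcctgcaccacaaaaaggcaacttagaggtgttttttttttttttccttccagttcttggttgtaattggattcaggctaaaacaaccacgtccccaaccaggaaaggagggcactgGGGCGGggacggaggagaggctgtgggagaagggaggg
MMP15: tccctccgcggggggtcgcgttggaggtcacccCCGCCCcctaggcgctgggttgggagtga
TIMP1: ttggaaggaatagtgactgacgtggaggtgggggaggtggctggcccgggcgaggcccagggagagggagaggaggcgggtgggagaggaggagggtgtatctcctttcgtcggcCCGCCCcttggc
TIMP3: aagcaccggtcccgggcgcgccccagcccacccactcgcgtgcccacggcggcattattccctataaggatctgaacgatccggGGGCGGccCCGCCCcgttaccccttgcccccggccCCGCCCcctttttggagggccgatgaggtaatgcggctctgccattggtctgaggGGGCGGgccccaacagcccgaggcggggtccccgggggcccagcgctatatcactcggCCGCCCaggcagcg

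All 4 windows held the GC box, which 42.6% of 35116 promoter windows of the same length held. MMP14 had 1 such match at position -66 from the RefSeq start site, TIMP1 had 2, and MMP15 and TIMP3 had 5 each. The E-box was found in the MMP15 window alone, at -134 and -110, both after the GENCODE start, and 17.5% of all windows held it. The first of these E-boxes shares a base with a GC box. The AP-1 motif (6.6% of all windows) and the TATA box (10.7%) had no match in the 4 windows, which says only that these letters are not there. GC content was 56.8% for MMP14, 64.8% for TIMP1, 72.4% for TIMP3 and 74.8% for MMP15, with a median of 58.0% over all windows. A match of letters is a description and not a binding site.

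Levels of different genes were compared per kb of merged exons. In DMSO the order was MMP14 (472 CPM per kb), TIMP1 (84.4), TIMP2 (49.4), TIMP3 (24.8), MMP15 (1.95), MMP16 (0.939), MMP1 (0.686), MMP3 (0.123), MMP9 (0.0693) and MMP2 (0.0429). The libraries of neighbours in this order did not overlap, except that MMP9 overlapped both MMP3 and MMP2. With Azeliragon MMP1 stood at 3.58 ± 0.46 CPM per kb (SD, n = 3), above MMP15 (1.33 ± 0.21) and MMP16 (0.847 ± 0.16), so it moved from the seventh to the fifth place. Even so, MMP1 made up only 0.861% to 1.09% of the summed level per kb of the 23 MMP genes with Azeliragon, and 0.131% to 0.163% in DMSO. MMP14 made up 97.6% to 97.8% of that sum in DMSO and 96.7% to 96.9% with Azeliragon.

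The sum over the 23 MMP genes was 476 to 486 CPM per kb in DMSO and 379 to 380 with Azeliragon, and that over the 4 TIMP genes was 149 to 169 and 134 to 138. The ratio of the MMP sum to the TIMP sum was 2.88 to 3.19 in DMSO and 2.75 to 2.83 with Azeliragon. MMP14 stood 9.11-fold, 9.81-fold and 9.79-fold above TIMP2 per kb in DMSO a, b and c and 7.41-fold, 7.26-fold and 7.01-fold above it with Azeliragon. The conditions did not overlap in either ratio, and no test was made over the members. The ratio of MMP1 to TIMP1 per kb was 0.00681 to 0.0107 in DMSO and 0.0481 to 0.0620 with Azeliragon.

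**Figure D5:**
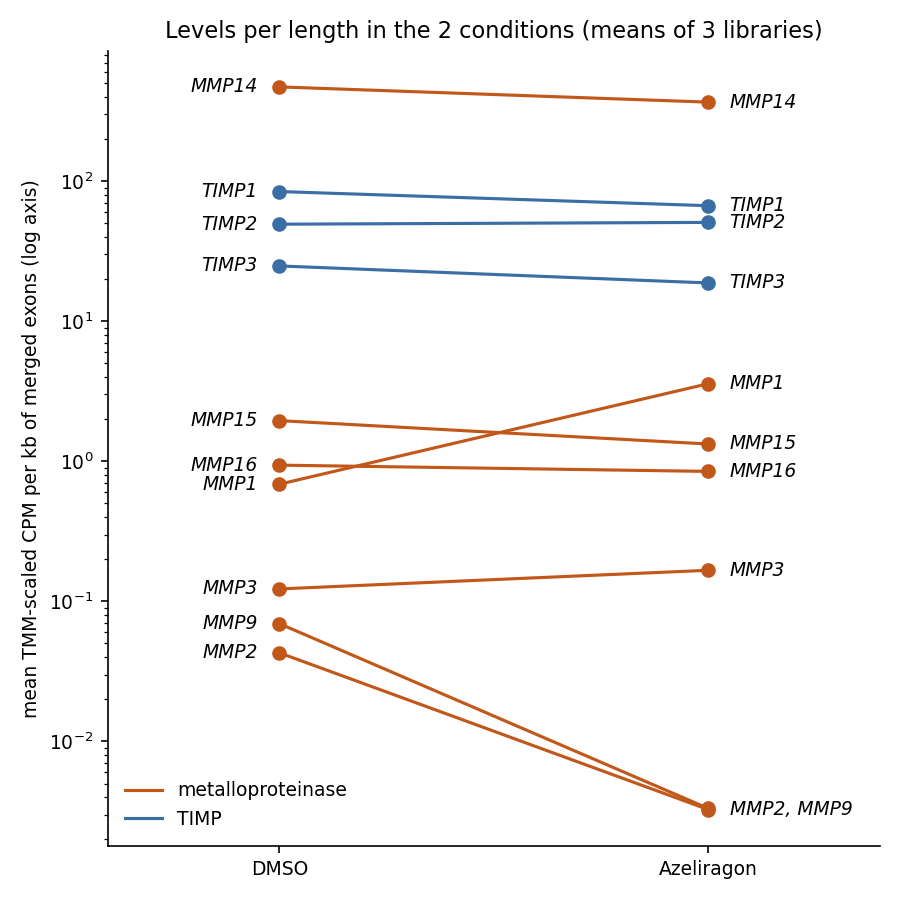
Mean level per length (TMM-scaled CPM per kb of merged exons, log axis) of the 10 genes in DMSO and with Azeliragon, 3 libraries each. MMP14 and the TIMPs keep the top 4 places, MMP1 crosses MMP16 and MMP15, and MMP2 and MMP9 lie lowest in both conditions.

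Outside the 10 genes, none of the other 16 MMP genes and TIMP4 passed. Of these 17 genes 6 could be tested, and 4 had 0 reads in all libraries. edgeR, DESeq2 and limma-voom called 0 of them, and 3 of the 6 had an unadjusted p under 0.05 in edgeR, as had 3280 of all 16081 genes tested: MMP11 (log2 fold change -0.47, SE 0.17), MMP19 (-0.28, SE 0.12) and MMP24 (-0.37, SE 0.16). MMP11, stromelysin-3, passed without DMSO a (edgeR adjusted p = 0.0341). MMP17, a membrane-type protease anchored by a lipid, had a log2 fold change of -0.09 (SE 0.10) and did not pass. MMP11, MMP19 and MMP24 share exon bases with genes on the opposite strand, so their counts are uncertain.

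Among 22 genes for MMP activation, inhibition and clearance, 19 were tested, and 1 rose and 2 fell (median log2 fold change -0.07). Over all genes tested 2.75% rose and 3.53% fell (median -0.004). PLAU, the urokinase that turns plasminogen into the MMP-activating protease plasmin, fell from 1555 to 1008 CPM (log2 fold change -0.63, SE 0.07; edgeR adjusted p = 0.000183). PLAU shares 916 exon bases with C10orf55 on the opposite strand, which held 1529 and 1049 reads against 204136 and 129048 of PLAU. THBS2, a thrombospondin that takes part in MMP2 clearance, fell (-0.45, SE 0.10; edgeR adjusted p = 0.0216). The call of THBS2 was lost when DMSO b or any of the Azeliragon libraries was omitted (edgeR adjusted p up to 0.127). RECK, a membrane-anchored MMP inhibitor, furin and the MMP inducer BSG had log2 fold changes of -0.18, -0.14 and -0.17 and did not pass. These 3 were named after their values were seen. Of the 19 genes tested from this list 10 had a log2 fold change below 0, as had 50.9% of all genes tested.

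Among 18 factors of the AP-1, ETS and RUNX families, which are known to act at MMP promoters, 17 were tested. Of these 1 rose and 2 fell (median log2 fold change -0.11), beside 2.75% and 3.53% of all genes tested (median -0.004). ETS1 rose from 199 to 267 CPM (log2 fold change 0.42, SE 0.08; edgeR adjusted p = 0.00763), a call lost without DMSO b or Azeliragon a (edgeR adjusted p = 0.0649 and 0.0602). JUNB, an AP-1 subunit, fell (-0.50, SE 0.07; edgeR adjusted p = 0.00154) in every set of 5 libraries. ELF3 fell (-2.91, SE 0.70; edgeR adjusted p = 0.0284) from 41, 11 and 13 reads to 2, 2 and 4. ELF3 shares 664 exon bases with ELF3-AS1 on the opposite strand, which held 293 reads in DMSO and 237 with Azeliragon, so the count of ELF3 is uncertain. JUNB likewise shares 259 exon bases with HOOK2, which held 2505 and 2145 reads. The call of ELF3 was lost with limma-voom, when DMSO a was omitted (log2 fold change -2.10) and when any of the Azeliragon libraries was omitted (edgeR adjusted p 0.054 to 0.152 in these sets).

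Of 22 matrix proteins that MMPs cut or act in, 19 were tested, and 7 fell and none rose with all 6 libraries (median log2 fold change -0.16). Of all genes tested 3.53% fell and 2.75% rose (median -0.004), and no test was made over this list. The 4 with the smallest p were COL7A1 (log2 fold change -1.30, SE 0.08), COL6A1 (-0.86, SE 0.09), COL5A1 (-0.93, SE 0.08) and COL6A3 (-1.09, SE 0.16), and each fell in every set of 5 libraries (edgeR adjusted p up to 0.0179). COL7A1 forms anchoring fibrils, COL5A1 is part of fibrillar collagen and COL6A1 and COL6A3 are chains of collagen VI. The number lower was 7 in each set of 5 libraries, while without DMSO a 4 of these genes were also called higher. Without DMSO a 2137 of all 16508 genes tested were called higher and 1779 lower.

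MMP1 was compared, by Pearson correlation of log2 CPM over the 6 libraries, with 11966 other genes that averaged 1 CPM or more. Pseudogenes, clone names and genes without annotation were left out of this comparison. Among the 5 genes most like MMP1 were BCAR3 (r = 0.9985), SH2D5 (0.9983), PTDSS1 (0.9979) and LCP1 (0.9975). The points fall into the 2 conditions, so these values describe that shared step and no p is given. SH2D5 (log2 fold change 0.90; edgeR adjusted p = 3.8e-05), LCP1, an actin-bundling protein (0.73; 3.89e-05), and PTDSS1, a phosphatidylserine synthase (0.31; 0.00709), rose, while BCAR3 did not pass (0.14; edgeR adjusted p = 0.175). Each of these genes had a smaller fold change than MMP1.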

How the data were processed

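The authors deposited raw counts for every gene in 6 libraries. Per the submitters' processing notes the tools were STAR 2.6.1d, featureCounts 1.5.0-p3 and limma, with the build GRCh38. For the annotation, the strand setting and multiply matching reads, nothing is given in the sources used here. A pair of entries whose gene names had been turned into dates, stored as numbers, with 0% of the counts, was dropped. Of 58735 names 58722 were in GENCODE 29, which gave coordinates, lengths and GC content.

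edgeR 4.0.16 (R 4.3.3) was run with filterByExpr, TMM scaling, glmQLFit and glmQLFTest on treatment alone, over all genes. The 95% intervals use the standard error and the fit's degrees of freedom. The scripts were tested on simulated data. The members and gene lists were chosen with earlier results of these data known. Genes were named by a fixed rule: the members, other MMP genes called or averaging 1 CPM or more, up to 4 called genes of each list (the smallest p where none was called), and the 5 genes most like MMP1. Alternatives were RLE factors, library totals, no filter, a stricter filter (1 CPM in 3 libraries, mean of 50 reads), DESeq2 1.42.0, voom from limma 3.58.1, a block on the replicate letter, omission of each library, and removal of GC and length trends. Within each condition the libraries differed by more than sampling noise (chi-square per degree of freedom at least 4.60). Some genes the rule names, and a sequence, are not reported here.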

Additional observations from a re-analysis of the deposited data

How the results depend on the processing

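MMP1 was called higher, and MMP14 and TIMP3 lower, under all 14 other settings (log2 fold changes 2.27 to 2.48, -0.37 to -0.30 and -0.43 to -0.38). MMP15 passed in 11 of 14 and TIMP1 in 9 of 14, and the losses were all in fits that leave out a library, so 2 to 4 members were called lower there, where 4 were with all 6. Over all genes, 442 were called higher and 567 lower. The number higher was 898 with no filter on low counts, 690 with DESeq2 and 838 with the GC and length trend removed, and 154 to 2137 with a library left out; the number lower was 270 to 1779 with a library left out. The highest of both came without DMSO a. The cause was not tested. No pairing by replicate letter was seen: correlations of deviations were 0.027, 0.022 and -0.044 for the same letter and -0.082 to 0.064 for different letters. With so few libraries this cannot show whether those of the same letter were prepared together. With the replicate block 416 genes were called higher and 492 lower, with no change in the members called. With a library left out, 0 to 4 genes of the activation and clearance list were called higher and 1 to 4 lower, 0 to 3 and 1 to 5 of the AP-1, ETS and RUNX list, and 0 to 4 and 7 of the substrates. In the other settings up to 3 substrates were called higher and up to 9 lower. With the longest transcript in place of merged exons the DMSO level per kb was 564.5 for MMP14, 118.8 for TIMP1, 76.1 for TIMP2 and 2.03 for MMP15. Depth limits MMP2, MMP9, MMP3 and MMP10, which had at most 22 reads in a library.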

Other observations

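MMP24, which encodes a membrane-type protease, shares 799 exon bases with MMP24OS on the opposite strand. MMP24OS held 17296 reads in DMSO and 14215 with Azeliragon and did not pass (log2 fold change -0.25; edgeR adjusted p = 0.0996), while MMP24 itself had 194, 148 and 153 reads in DMSO and 132, 124 and 117 with Azeliragon. MMP11 shares 218 exon bases with CHCHD10, which held 4629 and 5106 reads and did not pass, and MMP19 shares 814 with TMEM198B, which held 720 and 581 reads. The sign of the log2 fold change of CHCHD10 (0.18) was opposite to that of MMP11 (-0.47). How many reads of these pairs belong to each gene was not tested.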
